A study of Mus musculus with 13 samples.

Results

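Sarcomere, Z-disc and cytoskeleton genes were followed in nuclei of mouse heart ventricles that had received a vector for the human progesterone receptor or an empty vector. The 35 genes encode thin and thick filament proteins, actin regulators such as Vasp, Z-disc proteins, and the desmin and filamin scaffold around them. They also encode stress-response partners of titin and a pair of muscle ubiquitin ligases. All 35 were found by symbol among the 55536 genes of the deposited table. Troponins and myosin chains were left out. Of the 35 genes, 33 passed the filter on low counts. The other 2 were Xirp1, with 0 counts in every library, and Ankrd23, with 0 to 4 counts. The counted interval of Xirp1, a Z-disc and intercalated disc protein gene, lies wholly inside that of Cx3cr1 on the same strand, and 99.9% of the interval of Ankrd23 lies inside that of Gm42417 on the same strand, so the levels of both genes were not measured. Actc1 and Acta1 lie wholly inside genes on the opposite strand and kept 245178 and 2614 counts over all libraries. Their opposite-strand partners had 7145 counts (A530058N18Rik, around Actc1) and 86018 counts (Gm20388, around Acta1). The libraries were directional and the name of the deposited table marks reverse-strand counting. The share of reads counted on the wrong strand was not measured, which is a limit for Acta1, whose partner had more counts.

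The sarcomere is the contractile unit of striated muscle. Actin thin filaments are anchored at the Z-disc and slide along myosin thick filaments, which are tied together at the M-band, while the giant protein titin spans from Z-disc to M-band. The desmin network and filamin C link neighbouring Z-discs and the membrane, and the ligases Trim63 (MuRF1) and Fbxo32 (atrogin-1) mark muscle proteins for degradation. In the heart, mutations in many of these genes cause cardiomyopathy.

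RNA was sequenced from nuclei of C57BL/6J mice of either sex. AAV serotype 6 was given into the peritoneum at postnatal day 1, and ventricles were taken at postnatal day 56. The groups were females with the human progesterone receptor vector (PGR_F, 3 libraries, numbered 1, 2 and 4), females with the vector lacking an insert (Con_F, 4), males with the receptor vector (PGR_M, 3) and males with the empty vector (Con_M, 3). Sorting on Pcm1, a protein of centriolar satellites that marks cardiomyocyte nuclei, preceded RNA extraction in all groups, and each library pooled 3 to 6 whole ventricles. No source used here names the promoter that drives the insert, and the human transcript was not analysed here. P-values measure the spread between these pooled libraries.

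Total counts were 31.8 to 55.5 M in PGR_F, 37.6 to 58.9 M in Con_F, 45.3 to 57.9 M in PGR_M and 33.3 to 86.3 M in Con_M. The 10 cardiomyocyte markers were all detected, from 344 CPM (counts per M, scaled with TMM) for Tnni3 to 18809 CPM for Ryr2. Markers of other cells summed to far less in every group. The 10 fibroblast markers summed to 108 to 213 CPM in PGR_F, 151 to 195 CPM in Con_F, 74.1 to 160 CPM in PGR_M and 68.1 to 127 CPM in Con_M. Endothelial markers summed to 28.9 to 65.1 CPM and macrophage markers to 8.20 to 19.3 CPM over all libraries. Smooth muscle and pericyte markers summed to 306 to 365 CPM, of which Abcc9, a channel subunit that cardiomyocytes also express, averaged 285 CPM and the contractile gene Myh11 2.74 CPM. No marker on these lists was at 0. In bulk nuclei, fewer cells of a type cannot be told apart from less RNA per cell. A single library went partly against its label: Con_F 4 had 159 counts from 4 Y-linked genes, 1.01% of the male level, against 2 to 23 counts in the other 6 female libraries. Results were therefore also computed without Con_F 4, and values that then crossed the threshold are given beside the result.

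Promoter windows are shown for 4 genes on which the results below turn, 250 bases before to 50 after the RefSeq start site (GRCm38.p6). Vasp, Flnc and Acta1 are among the 4 genes with the smallest p for the vector, and Trim63 is the gene whose window holds a steroid receptor element. Capitals mark GC boxes (GGGCGG, either strand) in Flnc, the CArG box, the binding motif of serum response factor, in Acta1, and the element in Trim63. The windows of Acta1 and Trim63 also hold matches to other motifs, left in lower case. The window of Vasp held none of the 6 motifs searched.
Vasp chr7:19271805-19272104 (minus strand): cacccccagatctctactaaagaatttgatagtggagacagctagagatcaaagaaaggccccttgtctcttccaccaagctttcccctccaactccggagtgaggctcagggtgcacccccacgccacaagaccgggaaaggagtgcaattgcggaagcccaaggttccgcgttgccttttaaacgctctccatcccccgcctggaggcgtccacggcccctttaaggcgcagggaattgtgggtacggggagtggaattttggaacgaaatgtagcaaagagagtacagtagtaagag
Flnc chr6:29433006-29433305 (plus strand): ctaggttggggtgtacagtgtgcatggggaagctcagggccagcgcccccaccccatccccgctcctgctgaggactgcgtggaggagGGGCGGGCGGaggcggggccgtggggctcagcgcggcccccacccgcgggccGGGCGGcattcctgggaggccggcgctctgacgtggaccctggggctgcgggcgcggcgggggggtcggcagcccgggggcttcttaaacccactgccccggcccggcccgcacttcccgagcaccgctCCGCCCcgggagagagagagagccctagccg
Acta1 chr8:123894726-123895025 (minus strand): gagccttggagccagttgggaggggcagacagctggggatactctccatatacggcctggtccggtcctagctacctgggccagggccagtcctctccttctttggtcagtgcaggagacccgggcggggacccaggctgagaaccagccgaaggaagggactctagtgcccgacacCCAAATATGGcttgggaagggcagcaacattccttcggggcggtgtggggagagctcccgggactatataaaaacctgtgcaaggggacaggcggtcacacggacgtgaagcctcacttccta
Trim63 chr4:134314870-134315169 (plus strand): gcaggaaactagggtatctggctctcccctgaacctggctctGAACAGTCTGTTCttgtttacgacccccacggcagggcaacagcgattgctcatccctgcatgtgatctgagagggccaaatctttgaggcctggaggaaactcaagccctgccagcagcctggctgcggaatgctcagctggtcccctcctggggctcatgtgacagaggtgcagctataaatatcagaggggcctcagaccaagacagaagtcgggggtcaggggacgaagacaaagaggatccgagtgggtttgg

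The search covered both strands of 38 windows for 28 of the 35 genes, without Myot, Cryab, Fbxo32, Myom2, Xirp1, Fhod3 and Tcap. The steroid receptor element was the inverted repeat of GNACA and TGTNC with 3 bases of any kind between, which progesterone, glucocorticoid, androgen and mineralocorticoid receptors can bind. It was present in 0.475% of 32851 mouse promoter windows. Of the 38 windows, 1 held it, that of Trim63, at 208 to 196 bases before the start site. The half-site TGTTCT, which overlaps that repeat, was in 19% of all windows and in 8 of the 38, from 7 genes. The MEF2 motif, CTA and TAG with 4 bases of any kind between, was in 3.69% of all windows and in 9 of the 38. These came from 8 genes, among them Ttn, Des, Mybpc3 and Flnc. The CArG box was in 1.63% of all windows and in 7 of the 38, from Acta1, Actc1, Fhl2, Ldb3 and Nebl. GC boxes were in 35.7% of all windows and in 14 of the 38, from 13 genes. TATAAA was in 13.6% of all windows and in 7 of the 38, from 7 genes. Windows of the same gene can overlap, so the same site can be counted in more than 1 window. This holds for the CArG, MEF2 and half-site matches of Ldb3 and for GC boxes of Flnc. For Flnc the MEF2 match was in the window of another RefSeq start site, not in the one printed. A match is a description of letters and not of binding.

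**Figure D1:**
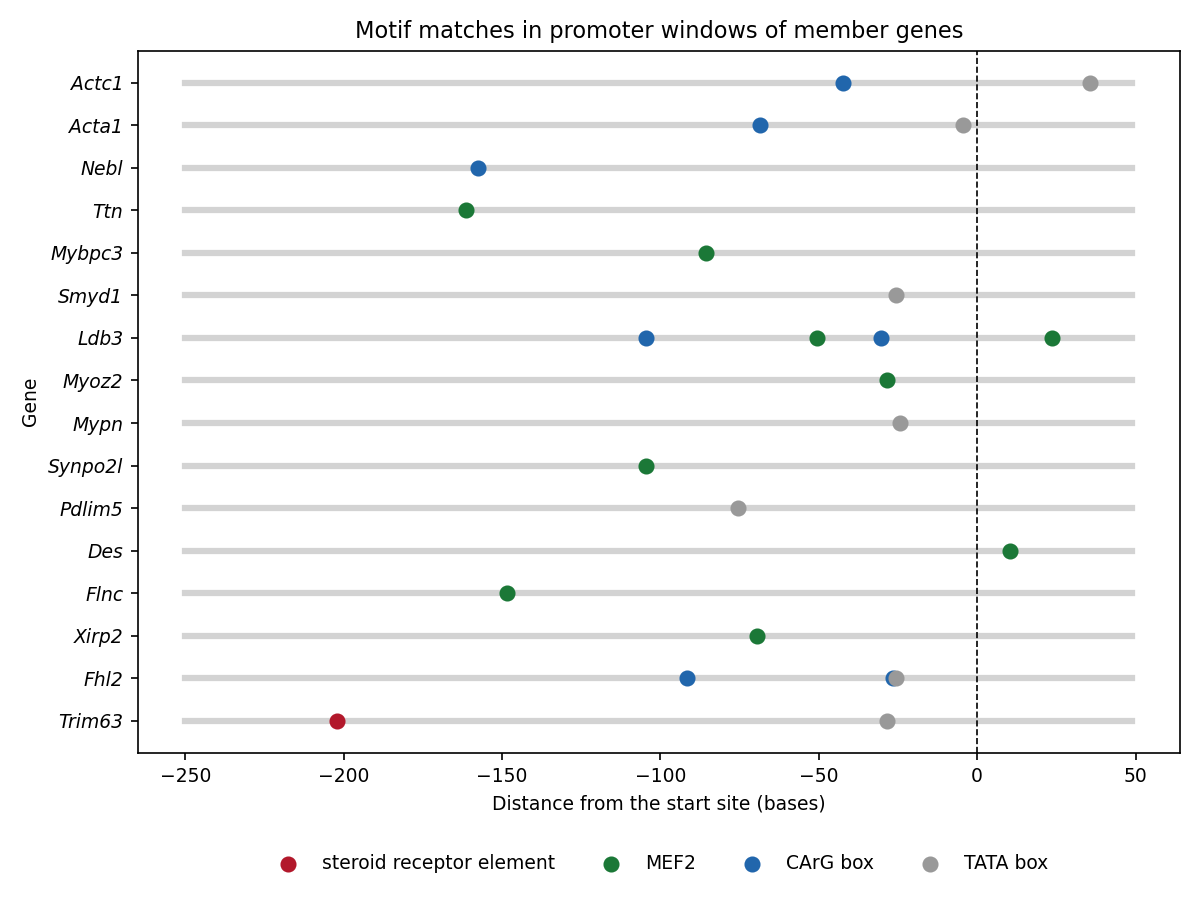
Positions of 4 motif classes in the promoter windows of the genes that hold at least 1, by distance in bases from the RefSeq start site (dashed line). Each grey bar is the window and each point the middle of a match. The steroid receptor element appears in Trim63 alone among the 28 genes with a window, and genes with several start sites have their windows overlaid.

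The 35 genes took 6.82% to 7.96% of all counts per library, and Ttn alone took 4.26% to 5.37%. Per kb of the counted interval, which holds introns, Ttn led with 174 CPM per kb. It was followed by Fhl2, a LIM-domain partner of titin, with 81.2 CPM per kb, and Mybpc3, cardiac myosin-binding protein C, with 76.2 CPM per kb. Cardiac actin Actc1 followed at 60.4 CPM per kb, and skeletal actin Acta1, its fetal and hypertrophy-associated relative, stood at 1.35 CPM per kb. Among the actin-regulating genes, Lmod2, a leiomodin that lengthens thin filaments, stood at 24.6 CPM per kb, the pointed-end cap Tmod1 at 5.12 CPM per kb, and Cap2, which recycles actin monomers, at 1.90 CPM per kb. At the Z-disc the levels ran from 39.0 CPM per kb for Ldb3 (cypher), 32.0 for the titin cap Tcap and 16.6 for alpha-actinin Actn2 down to 8.64 for the calcineurin-binding Myoz2 and 1.47 for Pdlim3. Myot, which encodes the Z-disc protein myotilin, was the lowest of the 33 genes at 0.736 CPM per kb.

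Ttn had 48523, 46494 and 42764 CPM in PGR_F and 48550, 43722, 54403 and 42391 CPM in Con_F. In males it had 52250, 47600 and 54536 CPM in PGR_M and 47091, 51766 and 48863 CPM in Con_M. Within each sex the groups overlapped. Fhl2 had 5533, 7106 and 4986 CPM in PGR_F and 6598, 6097, 5269 and 6446 CPM in Con_F, and 5090, 5590 and 6655 CPM in PGR_M and 6212, 6513 and 5969 CPM in Con_M. Mybpc3 had 1083, 1321 and 1253 CPM in PGR_F and 1283, 1133, 1677 and 1617 CPM in Con_F, and 1508, 1487 and 1459 CPM in PGR_M and 1336, 1368 and 1678 CPM in Con_M. Both genes overlapped between vectors in both sexes. The averaged log2 fold change for Ttn was 0.01 (SE 0.07), for Fhl2 -0.08 (SE 0.09) and for Mybpc3 -0.10 (SE 0.10), each with an edgeR adjusted p above the threshold of 0.05. The Mybpc3 value was -0.06 without Con_F 3, -0.05 without Con_M 3 and -0.07 without PGR_F 1.

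The genes also differed in how steady they were between replicates. The SD of log2 CPM within groups was lowest for the formin Fhod3 (0.08), Trim63 (0.09) and Vasp (0.10), and highest for Tcap (0.48), Pdlim3 (0.46), Acta1 (0.42) and Ankrd1 (0.40). Its median was 0.23 over the 33 genes and 0.19 over all 16125 genes tested. The 8 genes with an interval under 10 kb had a median of 0.30, against 0.19 for the 25 longer ones. Extreme levels were gathered in a few libraries. PGR_M 3 held the highest level of 12 of the 33 genes, and PGR_F 1 the lowest level of 10. Mitochondrially encoded mRNAs, RNA from outside the nucleus, summed to 1252 CPM in PGR_M 3 and to 420 to 933 CPM in the other 12 libraries; their part in the results was not tested.

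**Figure D2:**
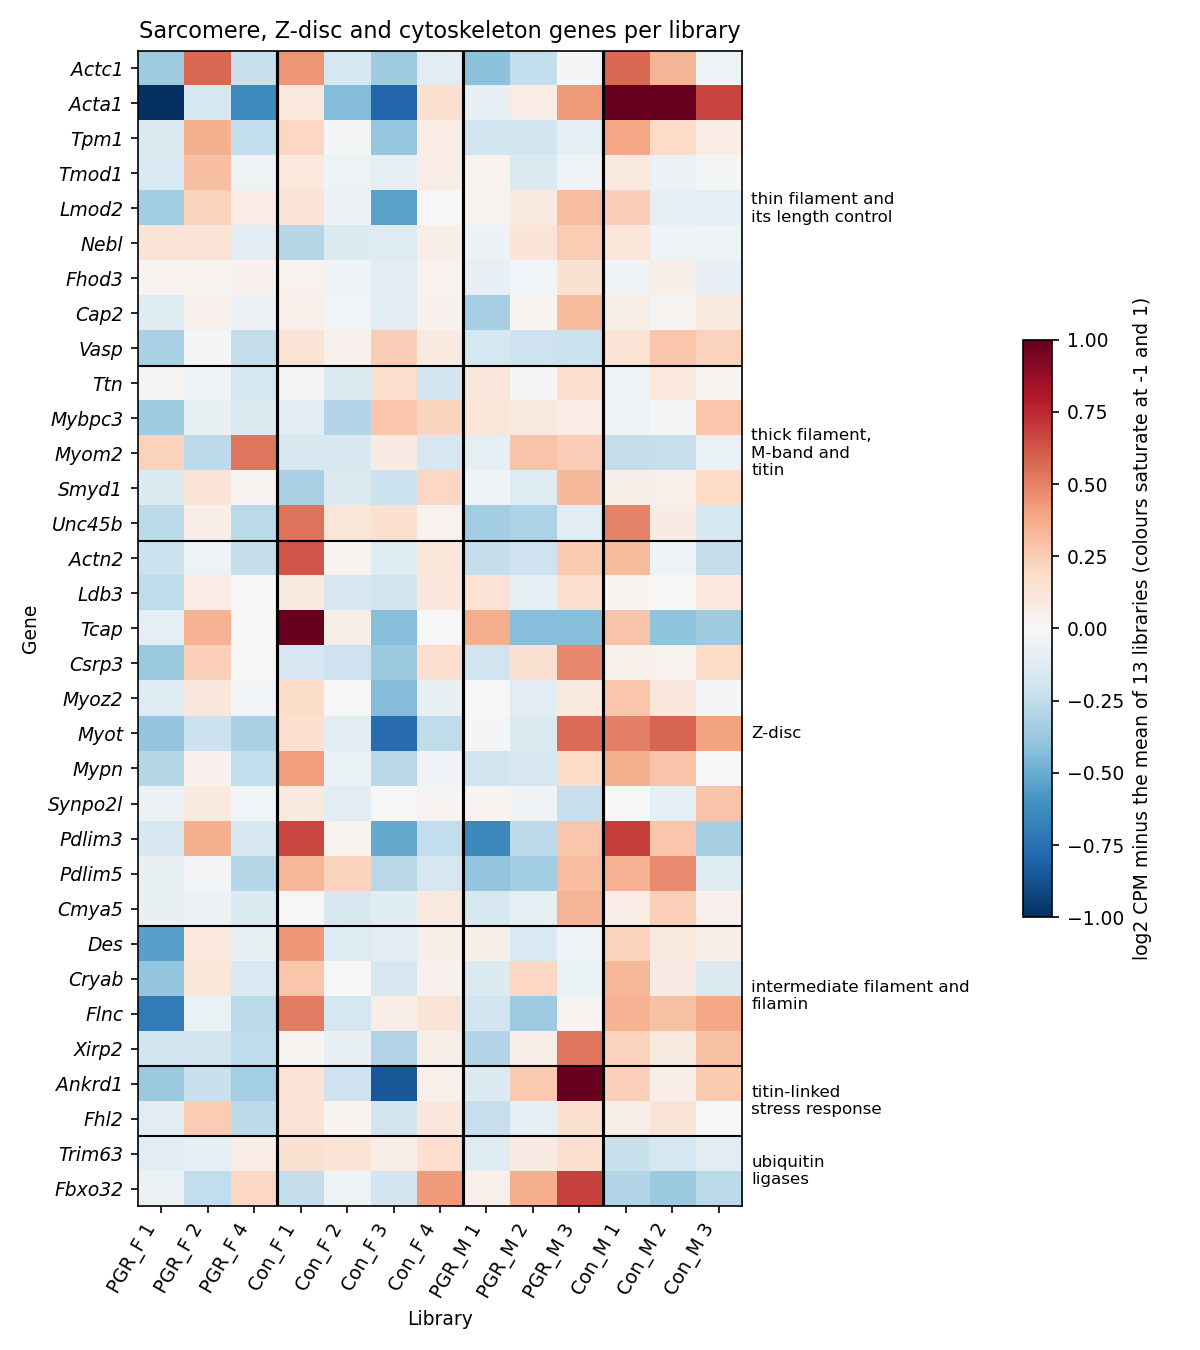
Heat map of log2 CPM of the 33 genes in 13 libraries, each gene relative to its mean over the libraries, with rows grouped by role and columns by group. PGR_M 3 is the darkest red column for Ankrd1 and Fbxo32, Con_F 1 stands out for Tcap, and Vasp is below its mean in all 6 libraries with the receptor vector and above it in all 7 with the empty vector.

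The first comparison set the receptor vector against the empty vector, averaged over the sexes. No gene of the 33 passed edgeR's quasi-likelihood test over all genes, where 0.0062% of 16125 genes passed (1 gene). At an unadjusted p under 0.05 there were 6 of the 33 (18.2%), against a background of 14.8%. Limma-voom called 0 of the 33 and DESeq2 called 4, Vasp, Flnc, Unc45b and Acta1, all lower with the receptor vector, where DESeq2 called 2.07% of all genes. The median log2 fold change was -0.08 over the 33 genes, with 11 above and 22 below 0, and 0.00 over all genes, of which 51% were above 0. Macrophage markers were above 0 in 9 of 9 tested (median 0.16) and mitochondrially encoded mRNAs in 9 of 10 (median 0.17), and their part in the vector comparison was not tested.

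Vasp was the gene that separated the vectors. Vasp (ENSMUSG00000030403, chromosome 7, 19256929 to 19271817, minus strand) encodes a protein that drives elongation of actin filaments at their barbed ends. It had 16.8, 20.9 and 17.8 CPM in PGR_F and 23.2, 21.7, 25.0 and 22.4 CPM in Con_F. It had 18.6, 18.2 and 18.1 CPM in PGR_M and 23.3, 25.5 and 24.7 CPM in Con_M. All 6 libraries with the receptor vector lay under all 7 with the empty vector, a separation that 1 of the 33 genes showed, against 0.62% of all genes in either direction and 0.36% in this one. The averaged log2 fold change was -0.37 (SE 0.06, 0.776-fold, edgeR adjusted p = 0.0607). It was -0.32 (SE 0.09) in females and -0.42 (SE 0.09) in males, and the difference between the sexes was 0.10 (SE 0.12). The averaged adjusted p was 0.0231 without Con_F 4, 0.00573 with no filter on low counts and 6.59e-05 with DESeq2, and it ranged up to 0.248 over the 19 alternatives.

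Filamin C, which crosslinks actin at the Z-disc and the membrane, was the next by p. Flnc (ENSMUSG00000068699, chromosome 6, 29433256 to 29461883, plus strand) had 128, 197 and 171 CPM in PGR_F and 296, 183, 217 and 226 CPM in Con_F. It had 181, 161 and 211 CPM in PGR_M and 263, 253 and 270 CPM in Con_M. The male groups did not overlap, and in females PGR_F 2 lay above Con_F 2. The averaged log2 fold change was -0.49 (SE 0.12, 0.710-fold, edgeR adjusted p = 0.107), with -0.48 (SE 0.16) in females and -0.51 (SE 0.17) in males. The adjusted p without Con_F 4 was 0.0604, and with DESeq2 0.00622.

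Unc45b is a chaperone that folds myosin heads. It averaged 125 ± 17.4 CPM (SD, n = 3) in PGR_F and 162 ± 27 CPM (n = 4) in Con_F, and 116 ± 10.4 CPM in PGR_M and 154 ± 36.9 CPM in Con_M (n = 3 each). Its levels overlapped in both sexes. The averaged log2 fold change was -0.40 (SE 0.11, edgeR adjusted p = 0.154), with -0.38 (SE 0.16) in females and -0.42 (SE 0.17) in males, and the averaged DESeq2 adjusted p was 0.0383. Without Con_M 1 the male value was -0.21. Myom2, the M-protein of the M-band, went the other way. It had 1214, 863 and 1504 CPM in PGR_F and 930, 929, 1096 and 921 CPM in Con_F. It had 973, 1260 and 1227 CPM in PGR_M and 876, 883 and 990 CPM in Con_M. The highest values were in PGR_F 4, PGR_M 2 and PGR_M 3, while PGR_F 2 was the lowest of all 13 libraries. The averaged log2 fold change of Myom2 was 0.32 (SE 0.11, edgeR adjusted p = 0.213), with 0.30 (SE 0.15) in females and 0.33 (SE 0.16) in males. The female value was 0.10 without PGR_F 4 and 0.49 without PGR_F 2.

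Acta1, the skeletal alpha-actin, was among the least abundant of the genes. It had 1.34, 3.18 and 2.31 CPM in PGR_F and 3.88, 2.66, 2.08 and 4.02 CPM in Con_F. It had 3.40, 3.79 and 4.82 CPM in PGR_M and 7.55, 7.44 and 5.76 CPM in Con_M. In males all libraries with the receptor vector lay under all with the empty vector, and in females the groups overlapped. The averaged log2 fold change was -0.62 (SE 0.19, edgeR adjusted p = 0.179), with -0.45 (SE 0.27) in females and -0.79 (SE 0.27) in males. The female value was -0.22 without PGR_F 1 and -0.76 without PGR_F 2. The DESeq2 adjusted p for the averaged effect was 0.0412.

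**Figure D3:**
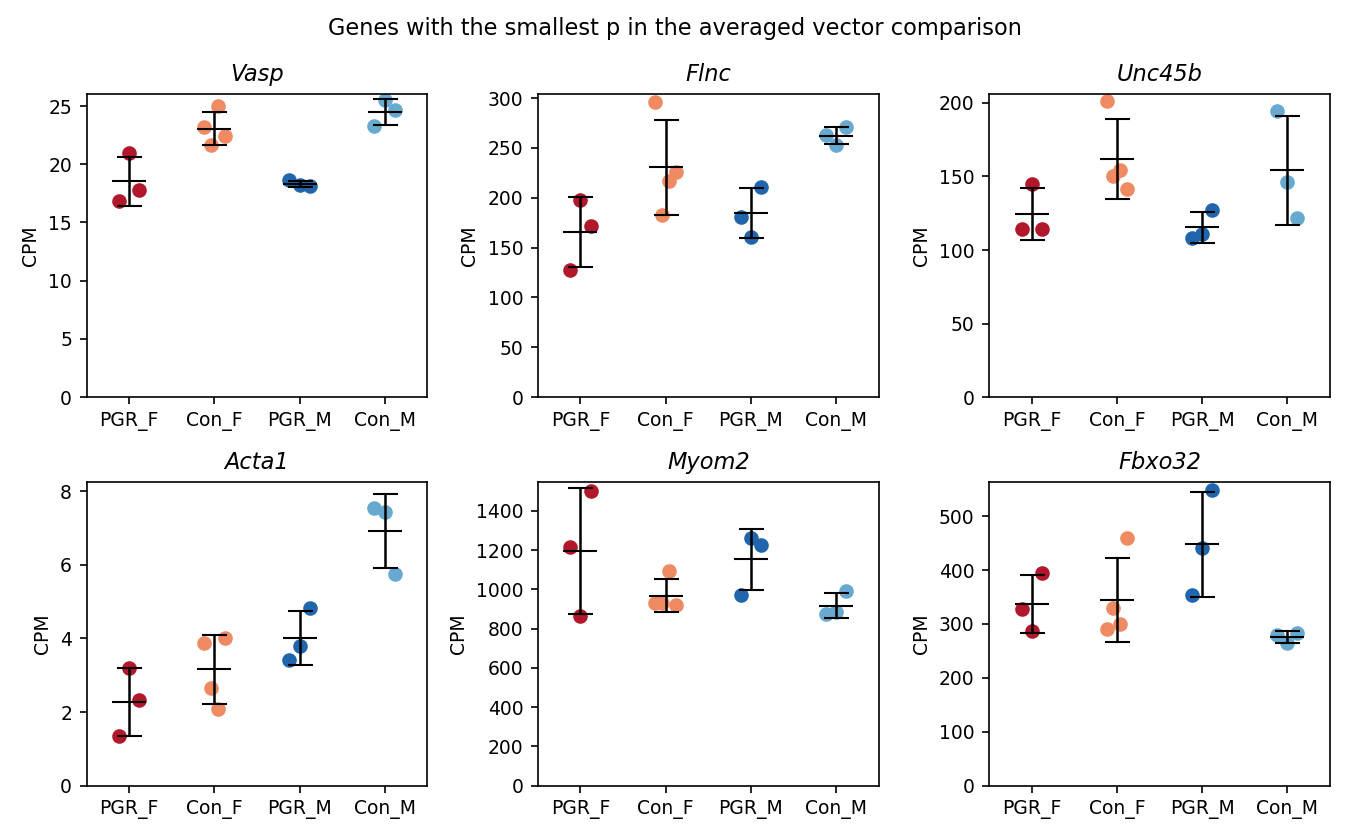
CPM per library (points) with the group mean and SD (black bars) for the 6 genes with the smallest p in the averaged vector comparison. Vasp shows no overlap between vectors in either sex, Flnc and Acta1 separate in males alone, and the Fbxo32 difference is seen between PGR_M and Con_M.

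By role, the thin filament genes, grouped with actin regulators that include Vasp and Cap2, split, with 3 of 9 above 0 and 6 below. Their median was -0.03. Nebl (nebulette, 0.14, SE 0.08) was the highest of them and Acta1 the lowest. The thick filament, M-band and titin group, which includes the methyltransferase and myosin chaperone partner Smyd1 (0.04, SE 0.09), had 3 of 5 above 0 and a median of 0.01. Of the 11 Z-disc genes, 9 were below 0, with a median of -0.10, and none reached an unadjusted p under 0.05. Besides the genes already named they are Mypn (myopalladin), Synpo2l and Cmya5. Their values ran from -0.27 for the PDZ-LIM protein gene Pdlim5 to 0.09 for Csrp3, which encodes the stretch-linked muscle LIM protein. Desmin (Des, -0.20, SE 0.11), the small heat shock protein alphaB-crystallin (Cryab, -0.13, SE 0.10), Flnc and Xirp2 were all below 0. The stress-response genes Ankrd1 (0.09, SE 0.21) and Fhl2 lay near 0, and both ligases were above 0.

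**Figure D4:**
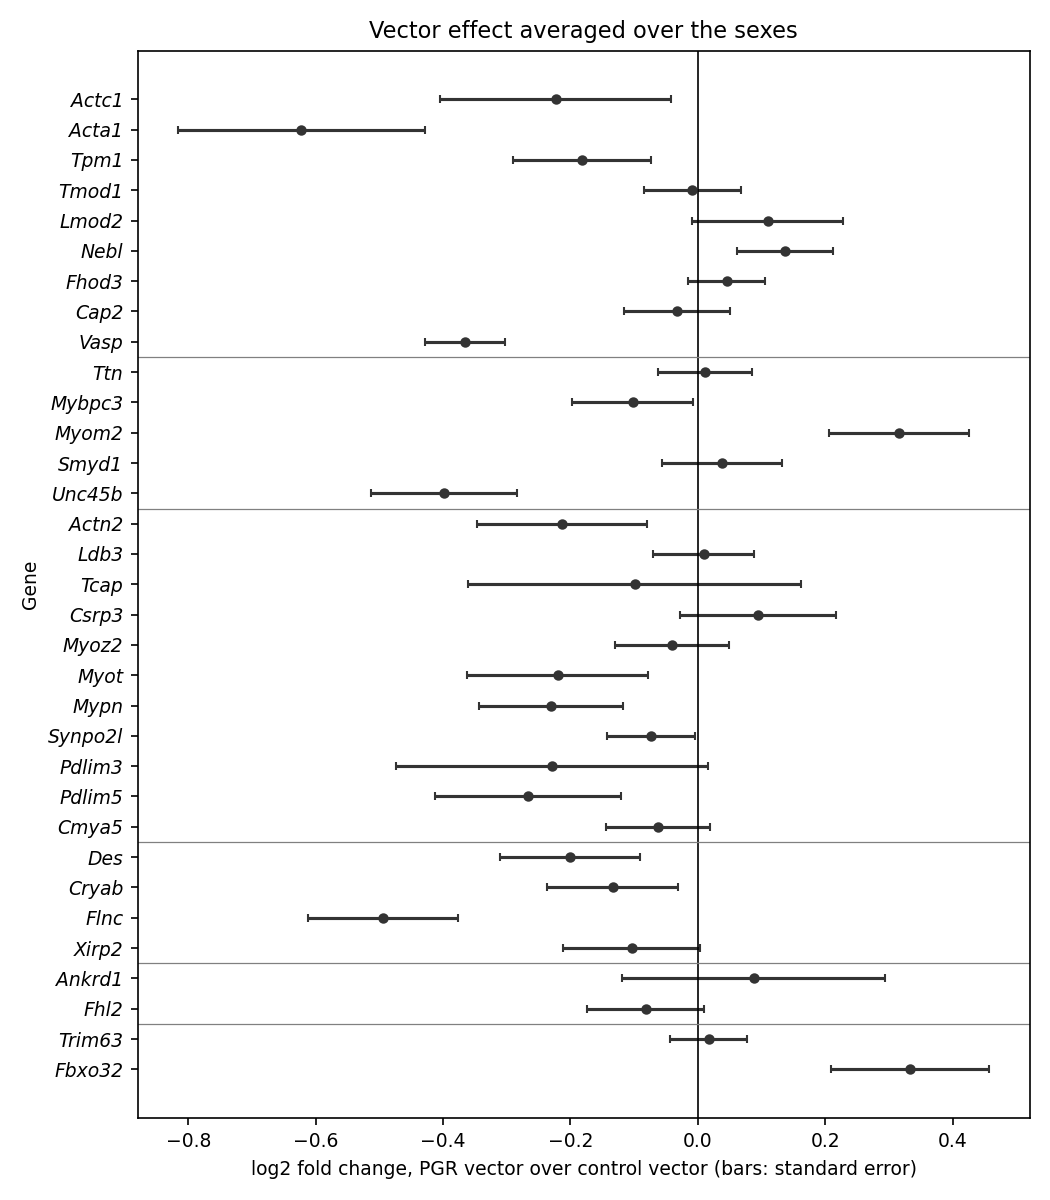
Averaged log2 fold change of the receptor vector over the empty vector (points) with its standard error (bars) for the 33 genes, grouped by role from the thin filament at the top to the ubiquitin ligases at the bottom. Vasp, Flnc, Unc45b and Acta1 lie farthest below 0 relative to their errors, and Myom2 and Fbxo32 farthest above.

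In females alone, the vector comparison called 0 of the 33 genes and 0% of all genes with edgeR, and 0 of the 33 with DESeq2 or limma-voom. At an unadjusted p under 0.05 there were 3 of the 33 (Vasp, Flnc and Unc45b), against a background of 10.9%. Vasp was the 1 gene whose female groups did not overlap, against 8.24% of all genes. In males edgeR again called 0 of the 33 and 0% of all genes, and limma-voom called 0. DESeq2 called Vasp (adjusted p = 0.0225), where it called 0.18% of all genes. At an unadjusted p under 0.05 there were 7 of the 33 (21.2%), against 7.48% of all genes: Vasp, Fbxo32, Flnc, Acta1, Unc45b, Tpm1 and Trim63. Groups without overlap numbered 6 of the 33 in males, against 15.7% of all genes. Of these, 5 were lower, against 8.48% of all genes, and 1 was higher, against 7.2%. The 5 were Vasp, Flnc, Acta1, Tpm1 and Des. Tropomyosin Tpm1, which lies along actin, had 930, 932 and 1000 CPM in PGR_M and 1398, 1229 and 1125 CPM in Con_M, which is -0.39 on the log2 scale (SE 0.16, edgeR adjusted p = 0.611).

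An interaction term compared the effect of the vector in females with that in males, and for it edgeR, limma-voom and DESeq2 each called 0 of the 33 genes and edgeR called 0% of all genes. The ubiquitin ligases were the 2 genes with an unadjusted p under 0.05, against a background of 3.26%. Trim63 (ENSMUSG00000028834, chromosome 4, 134315120 to 134329629, plus strand) encodes a ligase of the sarcomere that targets thick filament and other contractile proteins. It had 196, 199 and 224 CPM in PGR_F and 236, 234, 223 and 239 CPM in Con_F. It had 195, 225 and 238 CPM in PGR_M and 183, 189 and 198 CPM in Con_M. The highest PGR_F library lay just above the lowest Con_F library, and the lowest PGR_M library lay under the highest Con_M library. The log2 fold change of Trim63 was -0.17 (SE 0.08) in females and 0.21 (SE 0.09) in males, so the difference was -0.38 (SE 0.12, edgeR adjusted p = 1). For the same difference, endothelial markers were above 0 in 0 of 10 (median -0.48), and their part in it was not tested.

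Fbxo32 (ENSMUSG00000022358, chromosome 15, 58175879 to 58214932, minus strand), the ligase subunit atrogin-1, had 328, 288 and 395 CPM in PGR_F and 290, 330, 300 and 459 CPM in Con_F. It had 354, 440 and 549 CPM in PGR_M and 280, 264 and 283 CPM in Con_M. The male groups did not overlap and the female groups did. The log2 fold change was -0.03 (SE 0.17) in females and 0.70 (SE 0.18, 1.62-fold, edgeR adjusted p = 0.568) in males, a difference of -0.73 (SE 0.25, edgeR adjusted p = 1). Without Con_F 4, the highest female control, the female value of Fbxo32 was 0.14 and its averaged value was 0.42 (edgeR adjusted p = 0.0494), against 0.33 (SE 0.12, adjusted p = 0.253) with all libraries. PGR_M 3 held the highest level of Fbxo32, and without it the male value was 0.53. Actc1 had 287, 547 and 315 CPM in PGR_F and 500, 325, 287 and 340 CPM in Con_F, and 277, 310 and 365 CPM in PGR_M and 547, 465 and 358 CPM in Con_M. Tpm1 had 971, 1368 and 901 CPM in PGR_F and 1237, 1055, 821 and 1126 CPM in Con_F, beside the male values above. In females the groups overlapped for both genes. Tpm1 had a log2 fold change of 0.03 in females and -0.39 in males, and Actc1 0.08 and -0.53, so the differences were 0.42 (SE 0.22) for Tpm1 and 0.60 (SE 0.36) for Actc1, and both adjusted p-values from edgeR were 1. Without PGR_F 2, which had the highest Actc1 and Tpm1 levels in PGR_F, these differences were 0.25 for Actc1 and 0.21 for Tpm1.

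Females were then set against males under each vector. With the receptor vector, edgeR called 0 of the 33 genes and 0.143% of all genes, and limma-voom and DESeq2 called 0 of the 33. At an unadjusted p under 0.05 there were 5 of the 33, Acta1, Ankrd1, Myot, Xirp2 and Fbxo32, against 7.25% of all genes. With the empty vector, edgeR called 0 of the 33 and 0.229% of all genes, and limma-voom called 0. DESeq2 called Acta1, Myot and Trim63, where it called 1.39% of all genes. At an unadjusted p under 0.05 there were 3 of the 33, the same genes DESeq2 called, against 12.4% of all genes. Groups without overlap numbered 4 of the 33 with the receptor vector, against 13.7% of all genes, and 5 with the empty vector, against 11.3%. Markers of other cells were compared in the same way, and edgeR called 0 of them. Fibroblast markers were above 0 (higher in females) for 10 of 10 under each vector, with a median of 0.49 with the receptor vector and 0.79 with the empty vector. Endothelial markers were above 0 for 7 of 10 with the receptor vector (median 0.23) and 10 of 10 with the empty vector (median 0.63). Mitochondrially encoded mRNAs were below 0 for 9 of 10 under each, with a median of -0.42 with the receptor vector and -0.46 with the empty vector. Their part in the sex comparisons was not tested.

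Acta1 was lower in females than in males under both vectors. With the receptor vector the log2 fold change was -0.79 (SE 0.29, edgeR adjusted p = 0.547), from the library values given above. With the empty vector the mean was 3.16 ± 0.944 CPM (SD, n = 4) in Con_F against 6.91 ± 1.00 CPM (n = 3) in Con_M, or 0.457-fold, and the log2 value -1.13 (SE 0.26) had an edgeR adjusted p of 0.112. The female and male libraries did not overlap under either vector, and the DESeq2 adjusted p with the empty vector was 0.00237.

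Myot (ENSMUSG00000024471), a partner of alpha-actinin and filamin, had 11.7, 13.2 and 12.3 CPM in PGR_F against 15.1, 13.8 and 22.7 CPM in PGR_M. It had 17.2, 14.2, 9.02 and 12.8 CPM in Con_F against 21.8, 23.0 and 20.2 CPM in Con_M. The sexes did not overlap under either vector. The log2 fold change was -0.48 (SE 0.21, edgeR adjusted p = 0.666) with the receptor vector and -0.70 (SE 0.19, edgeR adjusted p = 0.197) with the empty vector, where the DESeq2 adjusted p was 0.0282. Without PGR_M 3 the first of these was -0.24. Acta1 and Myot are also skeletal muscle genes. Of 10 skeletal muscle marker genes, 7 were too low to be tested, among them the fast myosins Myh1, Myh2 and Myh4 with 4, 4 and 5 counts over all 13 libraries, while Ckm, which cardiomyocytes also express, averaged 109 CPM. The 10 summed to 77.3 to 126 CPM in PGR_F, 101 to 161 CPM in Con_F, 87.3 to 91.8 CPM in PGR_M and 105 to 149 CPM in Con_M.

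Ankrd1, a stretch-induced titin-binding repressor also called CARP, had 88.9, 98.6 and 90.8 CPM in PGR_F against 105, 138 and 249 CPM in PGR_M, which is -0.82 on the log2 scale (SE 0.30, edgeR adjusted p = 0.583). The groups did not overlap, but without PGR_M 3 the value was -0.40. With the empty vector Ankrd1 was at -0.36 (SE 0.28), and at -0.19 without Con_F 3. The actin-binding Xin-repeat gene Xirp2 had 262, 263 and 251 CPM in PGR_F against 244, 313 and 434 CPM in PGR_M, which is -0.35 on the log2 scale (SE 0.16, edgeR adjusted p = 0.667) and was -0.12 without PGR_M 3. It had 303, 283, 243 and 312 CPM in Con_F against 352, 318 and 367 CPM in Con_M, which did not overlap (-0.28, SE 0.15, edgeR adjusted p = 0.458).

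The sex differences of the ligases had opposite signs under the receptor and the empty vector, a contrast that is the same as the interaction given above. Trim63 averaged 233 ± 7.10 CPM (SD, n = 4) in Con_F against 190 ± 7.84 CPM (n = 3) in Con_M with no overlap, which is 0.29 on the log2 scale (SE 0.08, edgeR adjusted p = 0.189, DESeq2 adjusted p = 0.0394). With the receptor vector it averaged 206 ± 15.3 CPM in PGR_F against 219 ± 21.7 CPM in PGR_M (n = 3 each), which is -0.09 on the log2 scale (SE 0.09). Fbxo32 was likewise at 0.32 (SE 0.17) with the empty vector and at -0.41 (SE 0.18) with the receptor vector. Without Con_F 4 the first value was 0.15, and without PGR_M 3 the second was -0.25. These sex comparisons share libraries with the vector comparisons.

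**Figure D5:**
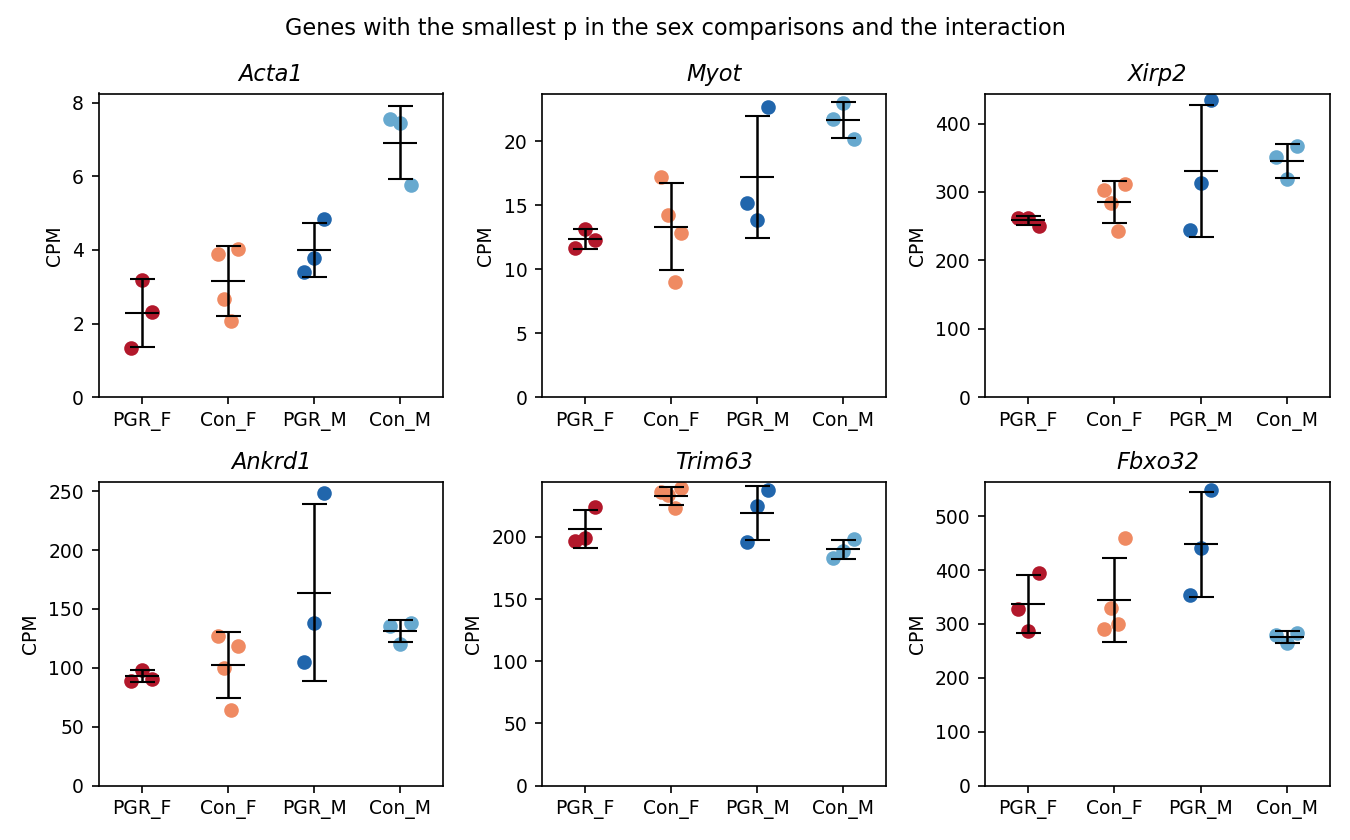
CPM per library (points) with the group mean and SD (black bars) for 6 genes with small p in the sex comparisons or the interaction. Acta1 and Myot are higher in both male groups, and Trim63 is highest in Con_F and lowest in Con_M. In PGR_M, Ankrd1 and Xirp2 each have a single high library, PGR_M 3.

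Other genes of the same structures were counted from 6 further lists. In the averaged vector comparison edgeR called 0 of them in any list, and the counts that follow are at an unadjusted p under 0.05. Of 9 tested A-band and M-band genes, 1 was higher and 5 were lower. In females alone 0 were higher and 5 lower, and in males alone 1 was higher and 0 lower. In either direction, 10.9% of all genes reached this threshold in females and 7.48% in males. Averaged over the sexes, the higher one was Mybphl (0.74, SE 0.30), a relative of myosin-binding protein H. Mybphl was at -0.02 in females and 1.51 in males, with group means of 0.977 to 2.84 CPM. Among the lower ones were Mybpc2 (-0.44, SE 0.12), a skeletal form of myosin-binding protein C, the kinases Speg (-0.26, SE 0.08) and Alpk3 (-0.19, SE 0.08), and the cytoskeletal adaptor Obsl1 (-0.23, SE 0.07). Of 18 further Z-disc and I-band genes, 0 were higher and 3 lower: the melusin gene Itgb1bp2 (-0.23, SE 0.06), junctophilin Jph2 (-0.45, SE 0.13), which joins the T-tubule to the sarcoplasmic reticulum, and Pdlim7 (-0.63, SE 0.18). Of 20 costamere and dystrophin-complex genes, 1 was higher and 3 lower. Alpha-sarcoglycan Sgca (-0.20, SE 0.06) and dystroglycan Dag1 (-0.14, SE 0.05) were among the lower ones, and beta-sarcoglycan Sgcb (0.16, SE 0.07) was higher.

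Of 22 actin-dynamics genes, 1 was higher and 3 lower. The higher one was Evl (0.26, SE 0.07, edgeR adjusted p = 0.14), an Ena/VASP-family relative of Vasp. Enah, of the same family, was below 0 like Vasp (-0.17, SE 0.09, edgeR unadjusted p = 0.0721). The lower ones were the disassembly factors Wdr1 (-0.29, SE 0.09) and Cfl1 (cofilin, -0.31, SE 0.10) and the barbed-end cap subunit Capzb (-0.29, SE 0.09). Of 16 microtubule and intermediate filament genes, 1 was higher, the beta-tubulin Tubb6 (0.45, SE 0.14), and 3 were lower. These were the desmin partner Sync (-0.28, SE 0.06, edgeR adjusted p = 0.0882), the linker Plec (-0.39, SE 0.09, edgeR adjusted p = 0.104) and the nuclear lamin Lmna (-0.36, SE 0.10). Of 21 protein-turnover genes, 0 were higher and 2 lower, the ligase genes Stub1 (-0.26, SE 0.10) and Trim54 (-0.20, SE 0.09), which encodes MuRF3. The Trim54 value was -0.13 without Con_F 1. The background at this threshold was 7.37% of all genes higher and 7.45% lower.

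Sync averaged 36.0 ± 0.995 CPM (SD, n = 3) in PGR_F and 45.4 ± 4.87 CPM (n = 4) in Con_F, and 37.3 ± 1.11 CPM in PGR_M and 43.6 ± 0.810 CPM in Con_M (n = 3 each). Like Vasp, it was lower in all 6 libraries with the receptor vector than in all 7 with the empty vector. Evl averaged 45.9 ± 3.93 CPM in PGR_F and 38.8 ± 4.45 CPM in Con_F, and 46.9 ± 3.00 CPM in PGR_M and 38.7 ± 3.91 CPM in Con_M, with the same numbers of libraries. Without Con_F 4 the averaged edgeR adjusted p was 0.0292 for Sync, 0.0394 for Evl, 0.0429 for Mybpc2 and 0.0452 for Plec, where 2.09% of all genes passed.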

How the data were processed

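Nuclear RNA was depleted of ribosomal RNA and made into directional libraries, per the labels' protocols. Whole-number counts per gene, not normalised, are what the authors deposited. The submitters' processing notes name STAR 2.5.3a and featureCounts 1.5.0, and as builds mm10 and GRCm38, without roles. The gene lengths deposited with the counts equal the whole span from start to end, so introns are part of the counted interval. Depth was 31.8 to 86.3 M counts per library.

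edgeR 4.0.16 was run under R 4.3.3 on 13 libraries: filterByExpr left 16125 of 55536 genes, libraries were scaled with TMM, and a robust quasi-likelihood model with 4 group means was tested for 6 contrasts with Benjamini-Hochberg adjustment over all genes tested. An adjusted p under 0.05 counts as called. Log2 fold changes are receptor over empty vector, or female over male, and each SE was computed as the size of that value over the square root of F. The method was tested on simulated counts with some genes raised and the same dispersion for every gene. Those rises were larger than most changes reported here, so smaller ones were not covered. Alternatives were size factors and the Wald test of DESeq2 1.42.0, limma-voom (limma 3.58.1), no filter, the smaller deposited table, replicate numbers as a block, and each library left out. Promoter sequences are from RefSeq.

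The genes and lists were chosen with earlier results of these data known. Full values were given for the 6 genes with the smallest p in the averaged vector comparison, the 4 with the smallest p in each other contrast, and the 3 with the highest level per kb. In each further list the 2 genes with the smallest p were named. Others at an unadjusted p under 0.05, and Enah, were added after their values were seen. Some genes of these lists are not reported here.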

Additional observations from a re-analysis of the deposited data

Results flagged for a closer look

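Of 15 genes examined for a library far from the others in Con_F, the group with 4 libraries, 1 was picked out: Myom2 in Con_F 3, at 1096 CPM against 921 to 930 CPM in the other 3, with a gap to the nearest library of 0.951 of the group's range. About 1 in 20 groups is picked out in this way by the limit used.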

How the results depend on the processing

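Of 114 counts of called genes, over 6 contrasts and 19 alternatives, 109 equalled the count with all libraries, which was 0 in each contrast. The exceptions were 4 genes called by DESeq2 in the averaged vector comparison, 1 in the male vector comparison and 3 in the sex comparison with the empty vector, 1 in the averaged comparison with no filter on low counts (Vasp), and 2 without Con_F 4 (Vasp and Fbxo32). Leaving out 1 library gave 0 to 2 called genes in the averaged comparison and 0 in the other 5. Over all genes, the averaged comparison called 1 gene with edgeR, 334 with DESeq2, 146 with no filter, 338 without Con_F 4 and 34 without PGR_F 4. In females 0 genes were called with edgeR, against 81 with DESeq2, 25 with no filter and 0 to 20 with 1 library left out, and in males 0 against 29, 12 and 0 to 3. The interaction gave 0 against 1, 1 and 0. The sex comparison gave 23 with the receptor vector, against 80, 51 and 10 to 44, and 37 with the empty vector, against 224, 131 and 14 to 99. The cause was not tested. Of 1045 single-gene values, 1033 kept their direction. The 12 that turned belonged to values of 0.08 or nearer 0 with all libraries. Leaving out 1 library gave Ttn, averaged, -0.0133 to 0.0483, and in females Actc1 -0.268 to 0.273, Fbxo32 -0.167 to 0.136 and Tpm1 -0.178 to 0.134. The Ttn value was below 0 without Con_F 2 (-0.0068), Con_F 4 (-0.0133), Con_M 1 (-0.00474), PGR_F 1 (-0.0116) or PGR_M 3 (-0.00903). In females, Actc1 was at -0.0183 without Con_F 3 and -0.268 without PGR_F 2. Fbxo32 was at 0.136 without Con_F 4 and 0.0719 without PGR_F 2. Tpm1 was at -0.077 without Con_F 3, -0.178 without PGR_F 2 and -0.0163 with the replicate block. The replicate numbers are not said to pair animals, and same-numbered libraries correlated between -0.25 and 0.25 in their deviations from group means. With the replicate block 0 genes of the 33 were called in each contrast, 35 of all genes were called in the sex comparison with the receptor vector and 25 in that with the empty vector, and the averaged edgeR adjusted p of Vasp was 0.0827. Acta1 had the fewest counts of the 33 genes, 2614 over all libraries.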
